A study of Rattus norvegicus with 3 samples.

Results

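Synaptotagmins, SNAREs, complexins and the regulators of SNAREs form the machinery that fuses vesicles with their target membranes. They were taken from the deposited tables by gene symbol, as every gene named Syt, Stx, Stxbp, Vamp or Cplx with a number, Snap23, Snap25, Snap29 or Snap47, Napa, Napb, Napg, and Nsf. The rule found 57 of the 30957 genes listed, each under 1 identifier, and used no measured value. The tissue was the motor cortex of 3 male rats of the Sprague-Dawley stock, numbered 32, 39 and 68, with 1 mRNA library per animal. They formed a single untreated group, labelled normal, with a time label of 8 weeks that is not defined as an age. No second group was analysed, so the data give levels within the tissue and the spread between these animals. Because each animal gave a single library, the animal, its dissection and its library preparation cannot be told apart. P-values measure only the spread between these libraries. Where variances were moderated, part of that spread was borrowed from the other genes tested.

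A SNARE complex is a bundle of helices. One strand comes from a vesicle protein of the Vamp group (an R-SNARE), one from a syntaxin, and the rest from a protein of the Snap25 family. Zippering of the bundle pulls the membranes together. Munc18 proteins, encoded by Stxbp genes, hold and template the syntaxin, complexins clamp and promote the assembled complex, and synaptotagmins couple fusion to calcium. After fusion the ATPase NSF and its adaptors, the soluble NSF attachment proteins, take the bundle apart. In cortex these genes are best known for transmitter release at synapses, while other members serve the Golgi, endosomes, lysosomes and autophagosomes of every cell.

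Levels were deposited as FPKM, fragment counts scaled to gene length and library depth, so genes can be compared per length. The inferred depth was 16550241, 15460924 and 17670985 fragments in animals 32, 39 and 68. A level of 1 FPKM therefore stands for 16.6, 15.5 and 17.7 fragments per kilobase. Errors after ± are SDs (n = 3). All 8 neuronal markers checked reached 1 FPKM or more in every animal. Animal 68 stood apart from the others. Its 6 choroid plexus markers summed to 7523 FPKM, against 634 in animal 39 and 10.7 in animal 32, mostly through Ttr (7264, 615 and 8.36). Its 6 oligodendrocyte markers summed to 8390 FPKM, against 4809 in animal 39 and 3124 in animal 32, and its 8 neuronal markers to 1225, against 1358 and 1390. For 6 striatal markers the sums were 217, 82.7 and 87.1 FPKM in that order of animals. In whole tissue, fewer cells of a type and less RNA per cell cannot be told apart.

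Most of the fusion genes were detected, with Snap25, Vamp2, Syt1 and Nsf at the top. Of the 57 genes, 53 (93.0%) had a mean of at least 1 FPKM, against 43.2% of all genes, and 51 reached it in every animal. None was listed at 0 in any library, while 38.9% of all genes were at 0 in every library. Mean levels of 100 FPKM or more were reached by 13, among them, in falling order, Snap25, Vamp2, Syt1, Nsf, Syt11, Cplx1, Cplx2, Napa, Vamp1, Napb and Stx1a. The 13 held 81.1 ± 1.78% of the FPKM of all 57. They were 24.5% of the 53 genes averaging 1 FPKM or more, against 4.57% of all 13378 genes that did. The 57 genes together held 1.55, 1.41 and 1.14% of all FPKM outside the mitochondrial genome in animals 32, 39 and 68.

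Each gene was tested against the median gene of its own library, taken over the same 13378 genes. That median was 9.82, 10.3 and 10.8 FPKM in animals 32, 39 and 68. Of the 53 fusion genes tested, 35 were higher than the median gene (limma on log2(FPKM + 0.1) ratios with moderated variances, Benjamini-Hochberg adjusted p under 0.05), where 42.8% of all genes tested were. Another 12 were lower, where 42.3% of all genes tested were, and 6 did not pass. Without variance moderation 32 were higher and 8 lower, where 36.8 and 32.1% of all genes were. For Snap25 the log2 ratio to the median gene was 6.48 (moderated SE 0.21; adjusted p = 1.56e-05), for Vamp2 5.27 and for Syt1 5.20. In limma without variance moderation the SE for Snap25 was 0.28 and its adjusted p 0.00923. At the other end stood Syt9 (-3.00), Stxbp2 (-2.67) and Stxbp4 (-2.61). The median log2 ratio was 1.14 for the fusion genes and -0.01 for all genes. All 4 disassembly genes were higher, as were 6 of 8 syntaxins of endosomes, Golgi and endoplasmic reticulum. The other calcium-binding synaptotagmins had 3 of 5 higher and 2 lower. Apart from the disassembly genes, each role class had at least 1 gene called lower than the median gene.

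**Figure D1:**
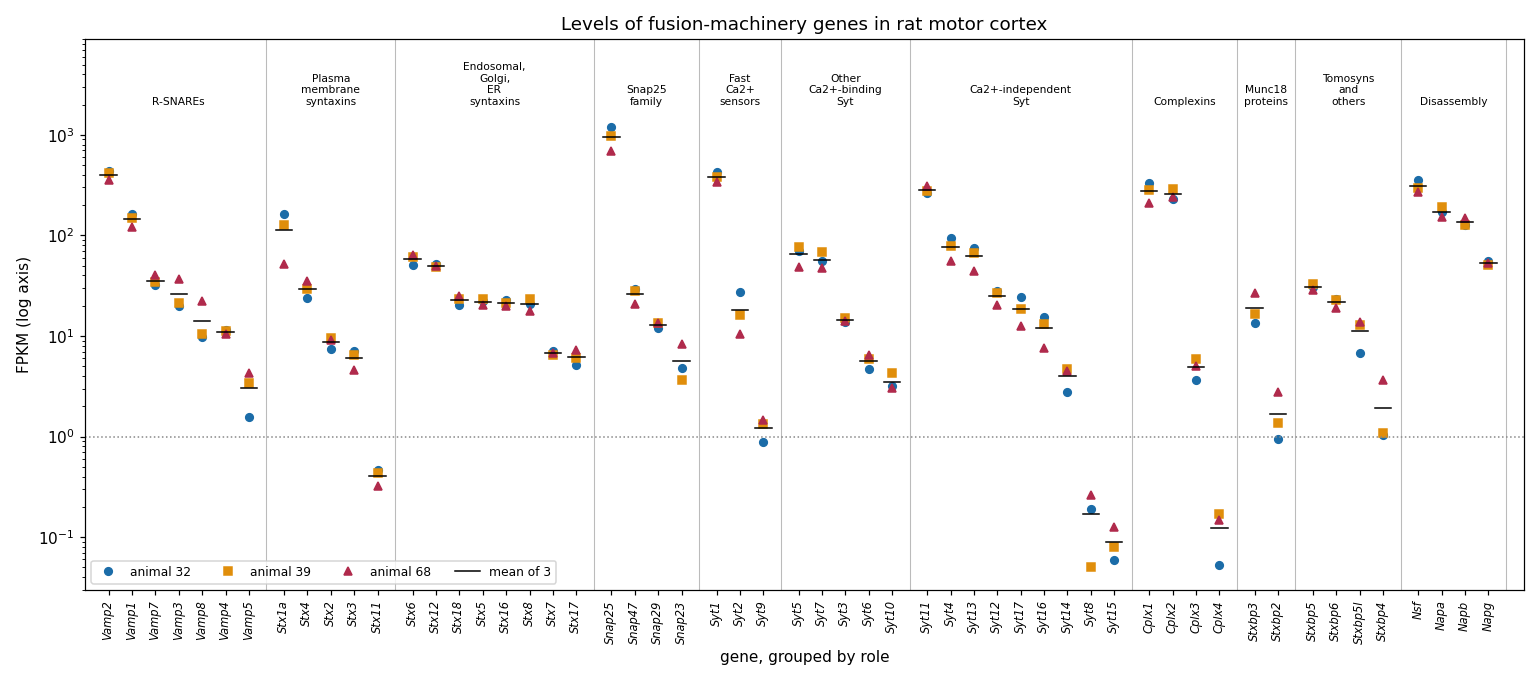
Level of 55 fusion genes in FPKM (log axis), grouped by role and ordered by mean within a role, with a point per animal and a line at the mean of 3. The dotted line marks 1 FPKM. Snap25 stands highest at 954 FPKM, and Stx11, Syt8, Syt15 and Cplx4 lie under 1 FPKM in every animal.

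Among the R-SNAREs, which sit on the vesicle, Vamp2 and Vamp1 led. Vamp2 (chromosome 10, 55675575 to 55679450, Rnor_6.0), the main R-SNARE of synaptic vesicles, measured 435, 419 and 352 FPKM in animals 32, 39 and 68. Vamp1 (chromosome 4, 157726941 to 157733643), its close relative on synaptic vesicles, measured 165, 150 and 120 FPKM. The ranges of these 2 genes did not overlap, and the log2 ratio of Vamp1 over Vamp2 was nearly constant, at -1.40, -1.48 and -1.55. Its mean was -1.48 (SE 0.04, n = 3), with an adjusted p of 0.00186 in limma without variance moderation. Vamp2 held 63.0 ± 2.55% of the summed FPKM of the 7 Vamp genes. The remaining members serve other membranes. Vamp7, of late endosomes and lysosomes, measured 32.3, 34.3 and 40.0 FPKM, and Vamp3, of recycling endosomes, 19.7, 21.5 and 37.2 FPKM. Vamp8, of late endosomal fusion and secretion outside neurons, measured 9.67, 10.3 and 22.1 FPKM. Both Vamp3 and Vamp8 were highest in animal 68. Their ranges overlapped each other, but within animals Vamp3 was above Vamp8 in 3 of 3. Vamp4, of the trans-Golgi network, was steady at 11.5, 11.2 and 10.4 FPKM. Vamp5, first described in muscle, was lowest at 1.58, 3.38 and 4.25 FPKM. All 6 other Vamp genes were lower than Vamp2, as were 99.2% of all genes tested, and 6 of 6 were also lower without variance moderation, where 98.8% of all genes were.

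The Snap25 family, which supplies a pair of helices to the bundle, was carried almost wholly by 1 gene. Snap25 (chromosome 3, 129599353 to 129788400), the neuronal member, measured 1206, 971 and 685 FPKM in animals 32, 39 and 68, and its mean ranked 25 of 30957 genes. It held 96.3, 95.6 and 94.2% of the family's FPKM in the same animals. Snap47, a neuronal member without membrane anchor, measured 29.3, 27.7 and 20.6 FPKM. Snap29, which acts with Stx17 in autophagosome fusion, measured 11.9, 13.4 and 13.5 FPKM, and Snap23, the widely expressed plasma membrane member, 4.77, 3.68 and 8.41 FPKM. No range of these 4 genes overlapped that of its neighbour in the order. The log2 ratio over Snap25 was -5.18 for Snap47 (SE 0.09), -6.16 for Snap29 (SE 0.29) and -7.43 for Snap23 (SE 0.55), each below 0 in 3 of 3 animals. The adjusted p-values in limma without variance moderation were 0.00389, 0.00404 and 0.00639. All 3 passed with moderation as well, as did 99.7% of all genes tested, and 99.3% did without it. Lying below Snap25 was thus shared with nearly every gene.

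Among syntaxins of the plasma membrane, Stx1a is a neuronal member that pairs with Snap25. Stx1a (chromosome 12, 24682041 to 24710019) measured 162, 127 and 52.5 FPKM in animals 32, 39 and 68, lowest in animal 68. Among the widely expressed plasma membrane syntaxins, Stx4 measured 24.0, 29.2 and 34.9 FPKM. Stx2 measured 7.35, 9.53 and 9.07 FPKM and Stx3 7.03, 6.44 and 4.56 FPKM. Stx11, known from immune cells, stayed at 0.464, 0.431 and 0.319 FPKM. Stx4 was highest in animal 68, where Stx1a was lowest.

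The 8 syntaxins of internal membranes held a middle range and varied little between animals, with a median SD of 0.12 on the log2 scale. Stx6, of the trans-Golgi network, measured 51.3, 61.2 and 63.6 FPKM, and Stx12, of recycling endosomes, 52.5, 48.4 and 49.7 FPKM. Their ranges overlapped. Stx18, of the endoplasmic reticulum, measured 20.5, 23.3 and 24.7 FPKM, and Stx5, between endoplasmic reticulum and Golgi, 22.3, 23.1 and 20.5 FPKM. Stx16, of the trans-Golgi network, measured 22.7, 21.1 and 19.9 FPKM. These 3 and the endosomal Stx8 (17.9 to 23.5 FPKM) overlapped from neighbour to neighbour. Stx7, of late endosomes, and Stx17, of autophagosomes, lay between 5.14 and 7.24 FPKM. Against Stx1a, 9 of 12 syntaxins were lower in limma with moderation, where 86.8% of all genes were. Without moderation 0 of 12 passed, where 0.0224% of all genes did. With moderation, 4 syntaxins were lower without animal 32, 2 without animal 39 and 11 without animal 68, where 57.5, 37.4 and 95.3% of all genes were, so the counts moved with those of all genes. Neither Stx6 nor Stx12 passed in either fit, and Stx6 was above Stx1a in animal 68.

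**Figure D2:**
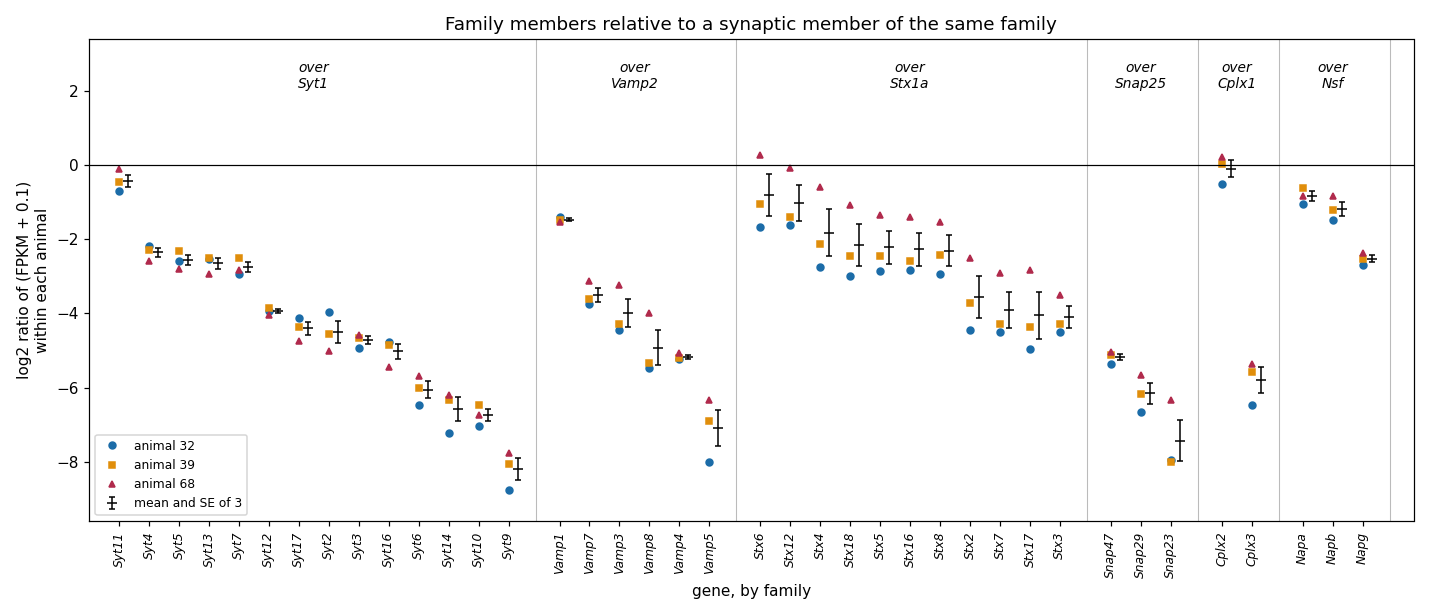
Log2 ratio of genes over a named member of their family, taken within each animal as log2(FPKM + 0.1), with 1 point per animal and the mean and SE of 3 beside it. The ratios to Stx1a, which measured 52.5 FPKM in animal 68 against 127 and 162 in the others, lie far apart between animals, while those of Vamp1 to Vamp2 stay between -1.40 and -1.55.

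Synaptotagmins formed the largest family, with 17 genes, and ranged from 0.0887 to 383 FPKM in mean level. Syt1 (chromosome 7, 50084060 to 50638798), the fast calcium sensor of forebrain synapses, measured 427, 385 and 338 FPKM in animals 32, 39 and 68. It held 38.6, 36.3 and 36.5% of the family's FPKM. The other fast sensors were far lower. Syt2, prominent in brainstem and in fast-spiking interneurons, measured 27.5, 16.3 and 10.5 FPKM, and Syt9 measured 0.883, 1.33 and 1.47 FPKM. Syt2 varied by 2.61-fold between animals, with animal 32 highest. The log2 ratio over Syt1 was -4.50 for Syt2 (SE 0.30) and -8.20 for Syt9 (SE 0.30), with adjusted p-values of 0.00534 and 0.00234 in limma without variance moderation.

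Next to Syt1 stood Syt11. This member lacks calcium-dependent lipid binding and is linked to membrane retrieval. Syt11 measured 263, 279 and 312 FPKM in animals 32, 39 and 68, highest where Syt1 was lowest, and its range stayed below that of Syt1. The log2 ratio of Syt11 over Syt1 was -0.70, -0.47 and -0.12. Its mean of -0.43 (95% interval -1.16 to 0.30) passed in limma with moderation (adjusted p = 0.0178) but not without it (adjusted p = 0.127). Among the calcium-binding members beyond the fast sensors, Syt5 measured 70.3, 76.7 and 48.8 FPKM. Syt7, a slow high-affinity sensor of asynchronous release and facilitation, measured 56.0, 67.8 and 47.4 FPKM. Syt3 was steady at 13.9, 15.1 and 14.1 FPKM. Syt6 measured 4.69, 5.89 and 6.41 FPKM, and Syt10 3.16, 4.24 and 3.05 FPKM. Among the members without calcium-dependent lipid binding, Syt4, found on dense-core vesicles, measured 94.1, 77.8 and 56.1 FPKM. Syt13 measured 74.3, 67.5 and 44.2 FPKM, and Syt12 28.0, 26.7 and 20.4 FPKM. All 3 were lowest in animal 68. Syt17 (24.4, 18.6 and 12.6 FPKM) and Syt16 (15.5, 13.3 and 7.64 FPKM) were also lowest there, while Syt14 (2.77, 4.68 and 4.48 FPKM) was not.

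Syt8 and Syt15 were close to 0. Syt8 measured 0.188, 0.0505 and 0.265 FPKM, and Syt15 0.0598, 0.0800 and 0.126 FPKM, values that rest on very few fragments. In the order of means, Syt4, Syt5, Syt13 and Syt7 overlapped from neighbour to neighbour, as did Syt12, Syt17, Syt2, Syt3 and Syt16. Within animals, Syt4 was above Syt5 and Syt12 above Syt17 in 3 of 3. The order of the other neighbours in these runs changed between animals. Of the 16 neighbouring pairs in the family, 9 overlapped. Against Syt1, 14 of 14 other synaptotagmins tested were lower with moderation, where 99.2% of all genes were, and 13 of 14 without it, where 98.7% were. Apart from Syt11, the mean log2 ratios ran from -2.36 for Syt4 to -8.20 for Syt9.

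Among the complexins, Cplx1 and Cplx2 shared the lead. Cplx1 (chromosome 14, 2194933 to 2226598) measured 335, 285 and 210 FPKM in animals 32, 39 and 68. Cplx2 (chromosome 17, 10756285 to 10818835) measured 232, 291 and 243 FPKM. The ranges overlapped, and Cplx2 was above Cplx1 in 2 of 3 animals. The log2 ratio of Cplx2 over Cplx1 was -0.52, 0.03 and 0.21, with a mean of -0.10 (SE 0.22, 95% interval -1.05 to 0.86). It did not pass in limma without variance moderation (adjusted p = 0.710) or with it (adjusted p = 0.637), and the interval allows a difference of up to about 1 log2 unit. Cplx3 and Cplx4, best known from ribbon synapses of the retina, were low. Cplx3 measured 3.69, 5.91 and 5.02 FPKM, and Cplx4 0.0531, 0.171 and 0.149 FPKM. The log2 ratio of Cplx3 over Cplx1 was -5.80 (SE 0.34; adjusted p = 0.00612, limma without variance moderation). Of the 2 complexins tested, 1 was lower than Cplx1 in either fit, where 98.4% of all genes were with moderation and 96.9% without it.

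Among the syntaxin-binding proteins, the widely expressed Munc18 gene Stxbp3 measured 13.6, 16.7 and 26.9 FPKM in animals 32, 39 and 68. Stxbp2, known from immune and epithelial secretion, measured 0.941, 1.37 and 2.75 FPKM. Both were highest in animal 68. The tomosyns compete with Vamp proteins for the syntaxin. Stxbp5 measured 30.4, 33.2 and 28.8 FPKM and Stxbp5l 6.70, 12.9 and 13.7 FPKM, with no overlap between them. Stxbp6 (amisyn) measured 23.3, 23.0 and 19.1 FPKM, and its range overlapped that of Stxbp3. Stxbp4 measured 1.02, 1.07 and 3.66 FPKM. Stxbp4 overlaps a gene on the opposite strand, AABR07030254.1, with a mean of 9.85 FPKM, so its fragments are uncertain without strand information.

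All 4 disassembly genes were abundant. Nsf (chromosome 10, 91878633 to 92008082), the ATPase, measured 359, 294 and 271 FPKM in animals 32, 39 and 68. Napa, the widely expressed adaptor, measured 172, 191 and 152 FPKM, and Napb, the brain-enriched adaptor, 128, 127 and 151 FPKM. Napg, the gamma adaptor, measured 55.3, 50.8 and 52.7 FPKM. Each kept its place in 3 of 3 animals, with no overlap between neighbours, although Napa and Napb came close in animal 68. The log2 ratio over Nsf was -0.84 for Napa (SE 0.13), -1.18 for Napb (SE 0.19) and -2.53 for Napg (SE 0.10). The adjusted p-values in limma without variance moderation were 0.0227, 0.0248 and 0.00299. All 3 were lower than Nsf in either fit, as were 98.8% of all genes with moderation and 98% without it. Nsf held 46.0 ± 3.80% of the summed FPKM of the 4 genes.

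**Figure D3:**
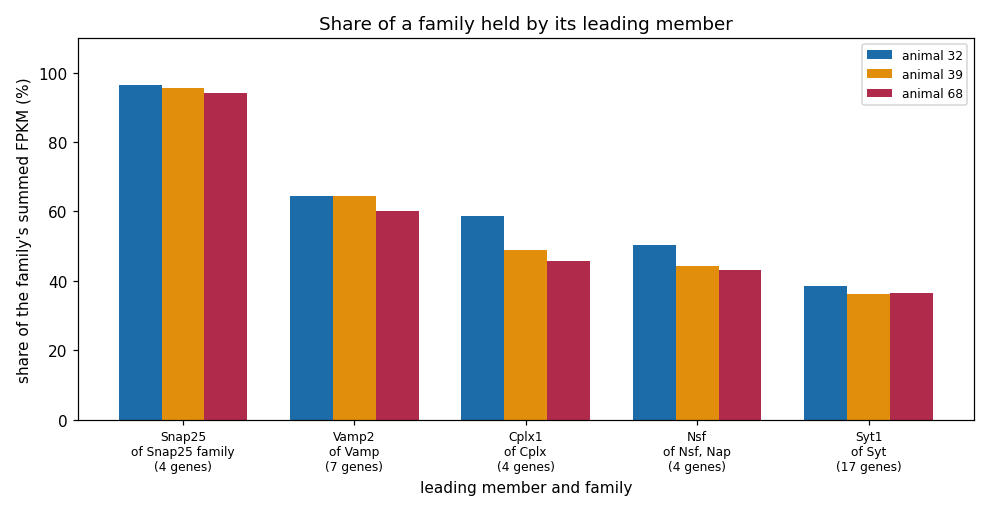
Share of the summed FPKM of 5 families held by the member with the highest mean, in percent, with a bar for each animal. The mean share runs from 95.4% for Snap25 to 37.1% for Syt1.

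Promoter windows were read from RefSeq (GRCr8, a later build than that of the expression tables), covering 250 bases before to 50 after the gene start. They were found for 46 of the 57 genes, 44 of them with 1 window. Their median GC content was 62.8%, against 52.7% over the 24206 genes with 1 window, and the median number of CpG dinucleotides was 20 against 8. Of these 44 windows, 30 (68.2%) held a GC box (GGGCGG on either strand), as did 35.9% of all windows. A TATA box (TATAAA) was found in 2 windows (4.55%), those of Stxbp3 and Stxbp5l, and in 14.3% of all. The cyclic AMP element TGACGTCA was found in 2 windows, of Napa and Vamp1 (4.55% against 1.91% of all). The RE1 core (CAGCACC, 2 bases of any kind, then GGACAG), bound by the neuronal repressor REST, was in 0 of 44 and in 0.0413% of all windows. Both strands were searched, and matches to different motifs overlapped in 0 of the 44 windows. A match is a string of letters and not a site, and no match says only that the letters are not in this window. The genes behind all windows were not filtered by level. Of the fusion genes 93.0% averaged 1 FPKM or more, against 43.2% of all genes in the expression tables. Whether these contrasts are particular to fusion genes was therefore not tested.

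The windows printed are those of leading R-SNARE, synaptotagmin and syntaxin genes, of the 2 abundant complexins, and of Vamp8 as a low member that was highest in animal 68. GC boxes on either strand are in capitals, and each sequence runs 5′ to 3′ on the strand of its gene. The windows lie at chr10:54292539-54292838 (Vamp2, plus strand), chr7:46244164-46244463 (Syt1, minus strand), chr12:27306422-27306721 (Stx1a, minus strand), chr14:1328823-1329122 (Cplx1, plus strand), chr17:10236704-10237003 (Cplx2, minus strand) and chr4:106005593-106005892 (Vamp8, minus strand).
Vamp2: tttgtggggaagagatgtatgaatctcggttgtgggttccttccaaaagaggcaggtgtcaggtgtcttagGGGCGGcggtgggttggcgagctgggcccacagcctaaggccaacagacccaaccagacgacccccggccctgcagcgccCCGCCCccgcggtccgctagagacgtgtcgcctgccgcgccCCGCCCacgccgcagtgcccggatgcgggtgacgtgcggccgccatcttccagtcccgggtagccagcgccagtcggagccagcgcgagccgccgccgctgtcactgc
Syt1: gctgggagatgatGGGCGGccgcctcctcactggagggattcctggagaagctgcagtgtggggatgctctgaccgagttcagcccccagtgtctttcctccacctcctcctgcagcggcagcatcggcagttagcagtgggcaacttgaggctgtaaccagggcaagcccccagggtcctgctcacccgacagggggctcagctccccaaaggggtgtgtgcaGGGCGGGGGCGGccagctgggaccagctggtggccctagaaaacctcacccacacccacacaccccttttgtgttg
Stx1a: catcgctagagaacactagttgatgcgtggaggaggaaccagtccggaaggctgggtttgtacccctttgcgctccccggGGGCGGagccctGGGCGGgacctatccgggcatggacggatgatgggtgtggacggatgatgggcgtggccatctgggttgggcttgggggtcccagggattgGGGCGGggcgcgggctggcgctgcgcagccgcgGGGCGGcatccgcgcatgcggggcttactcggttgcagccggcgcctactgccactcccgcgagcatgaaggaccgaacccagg
Cplx1: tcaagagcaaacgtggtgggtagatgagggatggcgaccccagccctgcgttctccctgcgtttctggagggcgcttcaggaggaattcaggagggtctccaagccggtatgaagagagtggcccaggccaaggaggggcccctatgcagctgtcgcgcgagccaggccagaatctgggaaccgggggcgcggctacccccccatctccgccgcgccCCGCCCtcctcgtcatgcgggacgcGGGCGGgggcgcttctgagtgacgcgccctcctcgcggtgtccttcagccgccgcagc
Cplx2: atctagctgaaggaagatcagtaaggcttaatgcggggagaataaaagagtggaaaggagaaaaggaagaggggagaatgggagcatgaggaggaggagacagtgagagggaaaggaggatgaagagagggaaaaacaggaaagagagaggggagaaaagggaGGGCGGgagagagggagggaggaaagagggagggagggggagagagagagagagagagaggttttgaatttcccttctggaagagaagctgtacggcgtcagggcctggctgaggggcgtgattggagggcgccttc
Vamp8: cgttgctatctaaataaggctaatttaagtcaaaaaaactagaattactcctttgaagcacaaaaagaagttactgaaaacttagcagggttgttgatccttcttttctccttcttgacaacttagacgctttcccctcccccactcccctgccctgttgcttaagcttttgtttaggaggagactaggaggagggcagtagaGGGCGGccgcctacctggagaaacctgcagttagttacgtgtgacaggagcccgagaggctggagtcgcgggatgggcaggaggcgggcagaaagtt
Whether window content goes with level was not tested. The windows of Cplx1 and Cplx2 differed in content. That of Cplx1 had 28 CpG dinucleotides, a GC content of 68.7% and 2 GC boxes, while that of Cplx2 had 6, 54% and 1. Vamp2 had 31 CpG dinucleotides and 3 GC boxes, Stx1a 28 and 4, and Syt1 8 and 3. Vamp8 had 9 CpG dinucleotides, a GC content of 49% and 1 GC box.

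Spread between the animals was largest for Stxbp4 and Stx1a. The median SD on the log2 scale was 0.25 for the 53 fusion genes and 0.20 for all 13378 genes. A difference of more than 2-fold between any 2 animals was found for 9 of the 53 (17.0%), against 14.5% of all genes. These were Stxbp4, Stx1a, Stxbp2, Syt2, Vamp5, Vamp8, Snap23, Stxbp5l and Syt16. Stxbp4 varied 3.34-fold and Stx1a 3.09-fold (on FPKM + 0.1). Without animal 68, 1 of the 53 differed by more than 2-fold (1.89%, against 3.14% of all genes) and the median SD was 0.12. Without animal 32, 4 did (7.55%, against 6.14% of all genes), and without animal 39, 8 did (15.1%, against 12.8%).

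Animal 68 was the lowest of the 3 for 27 of the 53 fusion genes (50.9%), against 35.5% of all genes, and the highest for 18 (34.0%), against 46.7%. After scaling by the median of ratios these shares were 56.6% against 42.2% and 32.1% against 39.4%. Of the 13 genes averaging 100 FPKM or more, 10 were lowest in animal 68, against 54.7% of all genes at that level. Syt11 and Napb were highest there, and Cplx2 was intermediate. After scaling by the median of ratios, which raised the share of all genes lowest there from 35.5 to 42.2%, Cplx2 was lowest there too. Among fusion genes averaging 1 to 100 FPKM, Vamp3, Vamp5, Vamp7, Vamp8, Snap23, Snap29, Stx4 and Stx6 were highest in animal 68 as deposited. So were Stx17, Stx18, Stxbp2, Stxbp3, Stxbp4, Stxbp5l, Syt6 and Syt9, and no others. Beside this, all 6 oligodendrocyte, 5 astrocyte, 5 microglial, 6 choroid plexus and 6 striatal markers were highest in animal 68. Lowest there were 6 of 8 neuronal markers and all 3 endothelial markers found, with sums of 46.8, 57.7 and 58.7 FPKM for animals 68, 39 and 32. Summed astrocyte markers stood at 577, 258 and 209 FPKM, and microglial markers at 80.8, 54.4 and 33.5, for animals 68, 39 and 32. Their part in the levels of the fusion genes was not tested.

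**Figure D4:**
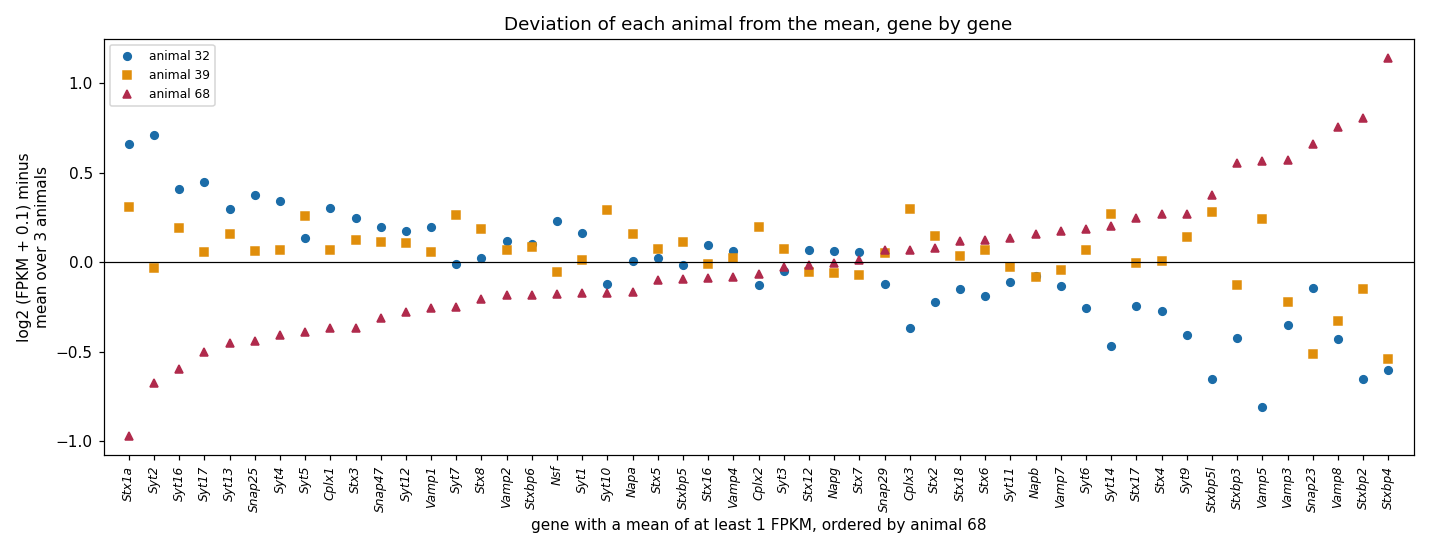
Deviation of each animal from the mean of 3, as log2(FPKM + 0.1), for 51 genes averaging 1 FPKM or more, ordered by the value in animal 68. Stx1a, Syt2 and Syt16 stand at the low end for animal 68, and Vamp8, Stxbp2 and Stxbp4 at the high end.

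Other genes of the fusion pathway whose names the rule does not match were examined as a list of 56. Of the 52 averaging 1 FPKM or more, 36 were higher and 11 lower than the median gene (limma, adjusted p under 0.05), where 42.8 and 42.3% of all genes were, and the median log2 ratio was 1.61. Vesicle proteins had 12 of 14 higher, and priming and docking proteins 8 of 12. The vesicle membrane protein Syp measured 606, 560 and 465 FPKM in animals 32, 39 and 68, and the vesicle GTPase Rab3a 488, 414 and 339 FPKM. Sncb (beta-synuclein) measured 389, 369 and 192 FPKM and the vesicle phosphoprotein Syn1 279, 245 and 194 FPKM. The vesicle glycoprotein Sv2a measured 157, 143 and 109 FPKM. These 5 genes were each lowest in animal 68, like Snap25, Vamp2 and Syt1, and like 54.7% of all genes averaging 100 FPKM or more. Of the 14 vesicle proteins, 11 were lowest in animal 68, against 35.5% of all genes. The remaining 3, Syn2, Sypl1 and Sv2c, were highest there, against 46.7% of all genes. The 12 other SNAREs, which serve the Golgi, endoplasmic reticulum and endosomes, had 8 higher and 3 lower. As deposited, 9 of the 12 were highest in animal 68, against 46.7% of all genes. After scaling by the median of ratios 4 of 12 were, against 39.4% of all genes. The 5 other proteins of the Munc18 type had 2 higher and 1 lower, the 5 tested calcium sensors and synaptotagmin-like genes 2 and 2, and the 4 other SNARE partners 4 and 0.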

How the data were processed

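Motor cortex mRNA of 3 untreated rats was analysed, 1 library each. The authors counted fragments per gene, normalized them and calculated FPKM with a script in Perl, per the labels. Per the submitters' processing notes, HISAT2 2.0.4 and StringTie 1.3.0 belong to the pipeline, with Rnor_6.0 as build and no roles stated. The sources used here give neither strandedness nor the annotation. No value above 0 was identical between libraries.

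FPKM keeps no counts, so no count test was run. Depth was inferred from loci of up to 400 bases, where 85.0, 86.6 and 82.0% of values came within 0.02 of whole fragments. The depth was set from these same loci, so that share is no independent check. Values were used as log2(FPKM + 0.1), which understates ratios of low genes. Genes averaging 1 FPKM or more were tested. The log2 ratio to the library median, or to a family member (Syt1, Vamp2, Stx1a, Snap25, Cplx1, Nsf), was tested for all genes with limma 3.58.1 in R 4.3.3 (one-sample, eBayes with trend), with Benjamini-Hochberg adjustment over all genes and a threshold of 0.05. A shared denominator gives its own error to every gene, so moderation overstates the precision of those ratios. The fit without variance moderation was therefore added after the data were seen, and its standard errors, intervals and p-values are the ones printed for ratios to a family member. With 3 animals the smallest p of an exact sign-flip test is 0.25, so none was run.

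Members, lists, denominators and tests were chosen with earlier results of these data known. Values in each animal are given for the leading 5 of each role, the denominators, the 8 with the largest SD and the highest of the pathway list, except some that are not reported here, and other genes named were chosen after their values were seen. Alternatives changed the pseudocount, filter, variance model, bound, scaling and animals. Python 3.11.15 with pandas 2.3.3 was used for the rest.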

Additional observations from a re-analysis of the deposited data

How the results depend on the processing

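The number of fusion genes higher than the median gene was 35 (42.8% of all genes). It ranged from 31 to 35 under the other pseudocounts, filters, variance models and bound. Of all genes, 30.3% (no filter) to 59.9% (filter at a mean of 5 FPKM) were higher under these settings. With 1 animal left out, the number of fusion genes ranged from 32 to 37 (37.7 to 44.2% of all genes). The number lower was 12 (42.3% of all genes), and it was 16 with no filter (59.2%), 5 with a filter at a mean of 5 FPKM (18.8%) and 7 against a bound of 1.5-fold (30.4%). Against Stx1a, 9 syntaxins were lower (86.8% of all genes), 0 without variance moderation (0.0224%), and 2 to 11 with 1 animal left out (37.4 to 95.3%). Against Cplx1, 1 complexin was lower (98.4% of all genes). With no filter, which brings in Cplx4, 2 were lower (98.8%). With a filter at 5 FPKM, which removes Cplx3, 0 were lower (97.7%). Genes of the pathway list called lower numbered 11, and 6 without variance moderation (42.3 and 32.1% of all genes); those called higher numbered 36 and 31 (42.8 and 36.8%). The number of fusion genes over 2-fold between animals was 9 (14.5% of all genes) and ranged from 1 to 8 with 1 animal left out (3.14 to 12.8%), and their median log2 SD was 0.25 and ranged from 0.12 to 0.32. Of 976 single-gene ratios under alternatives, 919 kept their direction and their side of the threshold, 48 no longer passed, 4 newly passed and 5 changed sign. None of the 5 passed under the setting that turned it. With 1 animal left out, the log2 ratio over the median gene ranged from -0.00702 (without animal 68) to 0.52 for Vamp8, from -0.11 (without animal 68; -0.10 without animal 39) to 0.33 for Stxbp5l, and from -0.0640 (without animal 32) to 0.51 for Syt16, which passed without animal 68 (limma adjusted p = 0.00364). That of Cplx2 over Cplx1 ranged from -0.25 to 0.12 (without animal 32). The cause was not tested. No paired analysis was possible because there is 1 group. Genes under 1 FPKM rest on few fragments, and 3 libraries limit every interval.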
